A study of Mus musculus with 27 samples.

Results

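The MHC class I presentation genes examined here were 10 genes: the heavy chains H2-D1, H2-K1 and H2-T23, the light chain B2m, the peptide transporter subunits Tap1 and Tap2, the loading factor Tapbp, the inducible proteasome subunits Psmb8 and Psmb9, and the transactivator Nlrc5. They were taken by symbol from the GENCODE M21 mouse annotation, through the Ensembl identifiers of the count table, and all 10 were found among its 55487 genes. All 10 also passed the filter for testing, at least 10 counts in at least 4 libraries, which kept 20271 genes. RNA-seq was performed on hippocampus and cortex of male C57Bl/6J wild-type mice aged 8 weeks at the start. An osmotic pump fed the right lateral ventricle for 14 days, and the tissue was taken from the side opposite to the pump. At 0.25 μl/h, the pumps delivered PBS, a control human IgG called pCtrl, or α-IgLON5#1, a polyclonal pool of antibodies against the neuronal surface protein IgLON5 that was purified from the plasma of a patient with anti-IgLON5 disease. All mice thus had a cannulated ventricle and a pump, and both antibody groups received human protein. The paper describes pCtrl as IgG from healthy serum, while the sample labels describe a monoclonal IgG, and this difference was not resolved here. A single patient pool was infused, so these groups do not show how antibodies of other patients would act. The groups were PBS (n = 5 hippocampi and 5 cortices), pCtrl (n = 4 hippocampi and 5 cortices) and α-IgLON5#1 (n = 4 hippocampi and 4 cortices), 27 libraries of 14 mice in all.

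MHC class I molecules carry short peptides from inside a cell to its surface, where CD8 T cells read them. Proteasomes cut the peptides, and in inflamed tissue the inducible catalytic subunits replace the constitutive ones and shift which peptides are made. The TAP transporter moves the peptides into the endoplasmic reticulum, and tapasin, the product of Tapbp, holds the transporter next to an empty heavy chain bound to β2-microglobulin until a peptide fits. Interferons raise most of these genes together through factors of the IRF family among others, and NLRC5 acts in the nucleus on a shared set of class I promoters. In the healthy brain, neurons carry little class I on their surface, whereas microglia and vascular cells carry more.

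Total counts per library ranged from 19385642 (a pCtrl cortex, mouse 11) to 58550621. The α-IgLON5#1 hippocampi had the lowest median of the 6 groups (19428512 to 32776892 counts), and the pCtrl hippocampi were sequenced more deeply (39479753 to 52212204). At these depths the lowest count of a member in any library was 13 (Nlrc5, a pCtrl cortex), so the values of Nlrc5, Psmb8 and Psmb9 in control libraries rest on 13 to 127 reads, and those of B2m on at least 1413. The labels give neurons as the cell type, but the libraries hold RNA of whole tissue. The 8 neuronal markers summed to 6367 to 9207 CPM (the usual library-size scaling of counts, here with TMM-normalized library sizes), the 8 astrocyte markers to 4751 to 7318, the 8 oligodendrocyte markers to 1611 to 4164, and the 10 microglia and macrophage markers to 230.8 to 641 CPM. In such tissue, more cells of a type and more RNA per cell cannot be told apart.

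Of the 10 genes, 8 lie on chromosome 17 (GRCm38), B2m lies on chromosome 2 (122147686 to 122153083) and Nlrc5 on chromosome 8 (94434356 to 94527272). Psmb9, Tap1, Psmb8 and Tap2 follow each other between 34181987 and 34216321 on chromosome 17, with Psmb9 on the minus strand and the other 3 on the plus strand. RefSeq promoter windows, 250 bases before to 50 after a start on GRCm38.p6, were given for 8 members, that is, all but Tap2 and Nlrc5. They were searched on both strands for the core of an interferon response element (GAAANNGAA), an interferon-γ activated site (TTCNNNGAA), a κB site (GGGANTCC), the core of the X2 box (TGACGC) and the Y box (ATTGG). The 5 windows that hold any of the first 3 motifs are shown, since these motifs belong to the pathways known to act on class I promoters. Capitals mark those matches, and on both heavy chain windows the κB site is read on either strand at positions that overlap.
H2-D1: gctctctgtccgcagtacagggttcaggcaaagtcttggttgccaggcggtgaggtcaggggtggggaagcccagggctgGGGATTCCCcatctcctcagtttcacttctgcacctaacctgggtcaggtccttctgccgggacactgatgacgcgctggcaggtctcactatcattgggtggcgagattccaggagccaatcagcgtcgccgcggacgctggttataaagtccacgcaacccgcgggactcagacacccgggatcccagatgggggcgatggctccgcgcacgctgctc
H2-K1: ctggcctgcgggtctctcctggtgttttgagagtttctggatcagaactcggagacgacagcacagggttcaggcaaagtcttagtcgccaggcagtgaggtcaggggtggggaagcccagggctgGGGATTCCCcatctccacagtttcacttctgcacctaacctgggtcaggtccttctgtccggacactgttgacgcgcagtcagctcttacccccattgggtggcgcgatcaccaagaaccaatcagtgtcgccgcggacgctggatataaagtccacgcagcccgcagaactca
H2-T23: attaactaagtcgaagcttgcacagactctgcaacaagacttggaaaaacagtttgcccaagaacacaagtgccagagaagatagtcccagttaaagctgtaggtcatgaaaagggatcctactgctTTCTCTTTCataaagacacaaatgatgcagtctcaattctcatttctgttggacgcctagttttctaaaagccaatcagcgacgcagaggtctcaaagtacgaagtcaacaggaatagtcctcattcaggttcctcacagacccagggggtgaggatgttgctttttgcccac
B2m: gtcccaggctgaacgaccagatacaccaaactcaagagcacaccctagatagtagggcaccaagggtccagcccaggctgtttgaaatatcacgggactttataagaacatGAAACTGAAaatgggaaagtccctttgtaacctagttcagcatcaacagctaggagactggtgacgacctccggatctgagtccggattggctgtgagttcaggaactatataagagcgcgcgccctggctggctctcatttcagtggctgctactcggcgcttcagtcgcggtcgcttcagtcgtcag
Psmb8: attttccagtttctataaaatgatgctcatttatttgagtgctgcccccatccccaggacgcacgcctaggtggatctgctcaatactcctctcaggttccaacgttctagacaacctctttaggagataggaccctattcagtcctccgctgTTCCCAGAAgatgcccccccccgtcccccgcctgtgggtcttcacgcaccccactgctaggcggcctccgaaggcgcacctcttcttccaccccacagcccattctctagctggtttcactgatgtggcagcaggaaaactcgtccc
The windows are chr17:35262844-35263143 on the plus strand for H2-D1, chr17:34000284-34000583 on the minus strand for H2-K1, chr17:36032652-36032951 on the minus strand for H2-T23, chr2:122147437-122147736 on the plus strand for B2m and chr17:34197945-34198244 on the plus strand for Psmb8. H2-K1 has a second RefSeq start 14 bases away, whose window holds the same matches. The κB site was found in 2 of 8 members (H2-D1 and H2-K1) and in 4.18% of 32851 mouse promoter windows, and the X2 core in the same 2 members and in 7.4% of windows. An interferon response element core was found in H2-T23 and B2m (8.56% of all windows), an interferon-γ activated site in Psmb8 (8.3%) and the Y box in 7 of 8 members, Psmb8 being the exception (37.4%). Tap1 and Psmb9 are read away from each other, and their windows share 275 of 300 bases. These matches describe letters and not bound sites.

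In the hippocampus, 8 of the 10 genes rose with α-IgLON5#1 relative to pCtrl (n = 4 each), as against 4.23% of all 20271 genes tested, and 0 fell (2.78% of all genes). With the study's fold threshold of 2 added, 7 members were up-regulated DEGs (2.21% of all genes). The median log2 fold change of the 10 members was 1.298, from 0.39 to 2.02, beside a median of 0.00 over all genes tested. In 9 members each α-IgLON5#1 library lay above each pCtrl library, which 6.68% of all genes showed, and Tap2 was the member that overlapped. In the cortex (n = 4 α-IgLON5#1, n = 5 pCtrl), 9 of 10 rose (3.01% of all genes), 7 were up-regulated DEGs (2.14%) and 0 fell (0.449%). The cortical median was 1.27, from 0.34 to 2.67, beside -0.01 over all genes, and the groups were apart in 7 members (3.68% of all genes). Calls came from the quasi-likelihood test of edgeR, after Benjamini-Hochberg correction across the tested genes, at an adjusted p under 0.05. The p-values rest on the spread between libraries within groups, estimated over all 27 libraries, with both tissues of a mouse taken as separate. The α-IgLON5#1 mice are numbered 8, 9, 16 and 17, while pCtrl mice 37 and 75 and PBS mice 32, 33, 38 and 74 have higher numbers. Infusion thus partly goes with mouse number, and whether the numbers follow cohorts was not tested. With only mice 8 to 17, which leaves 2 pCtrl hippocampi and 3 pCtrl cortices, 2 members passed in the hippocampus (H2-D1 and B2m, as against 0.277% of 19528 genes) and 1 in the cortex (B2m, 0.0512%). Members that no longer passed had log2 fold changes of, for example, 1.33 for hippocampal H2-K1 (1.36 with all libraries), 1.81 for hippocampal Psmb8 (1.80), 1.73 for hippocampal Nlrc5 (2.02) and 2.82 for cortical Nlrc5 (2.67).

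**Figure D1:**
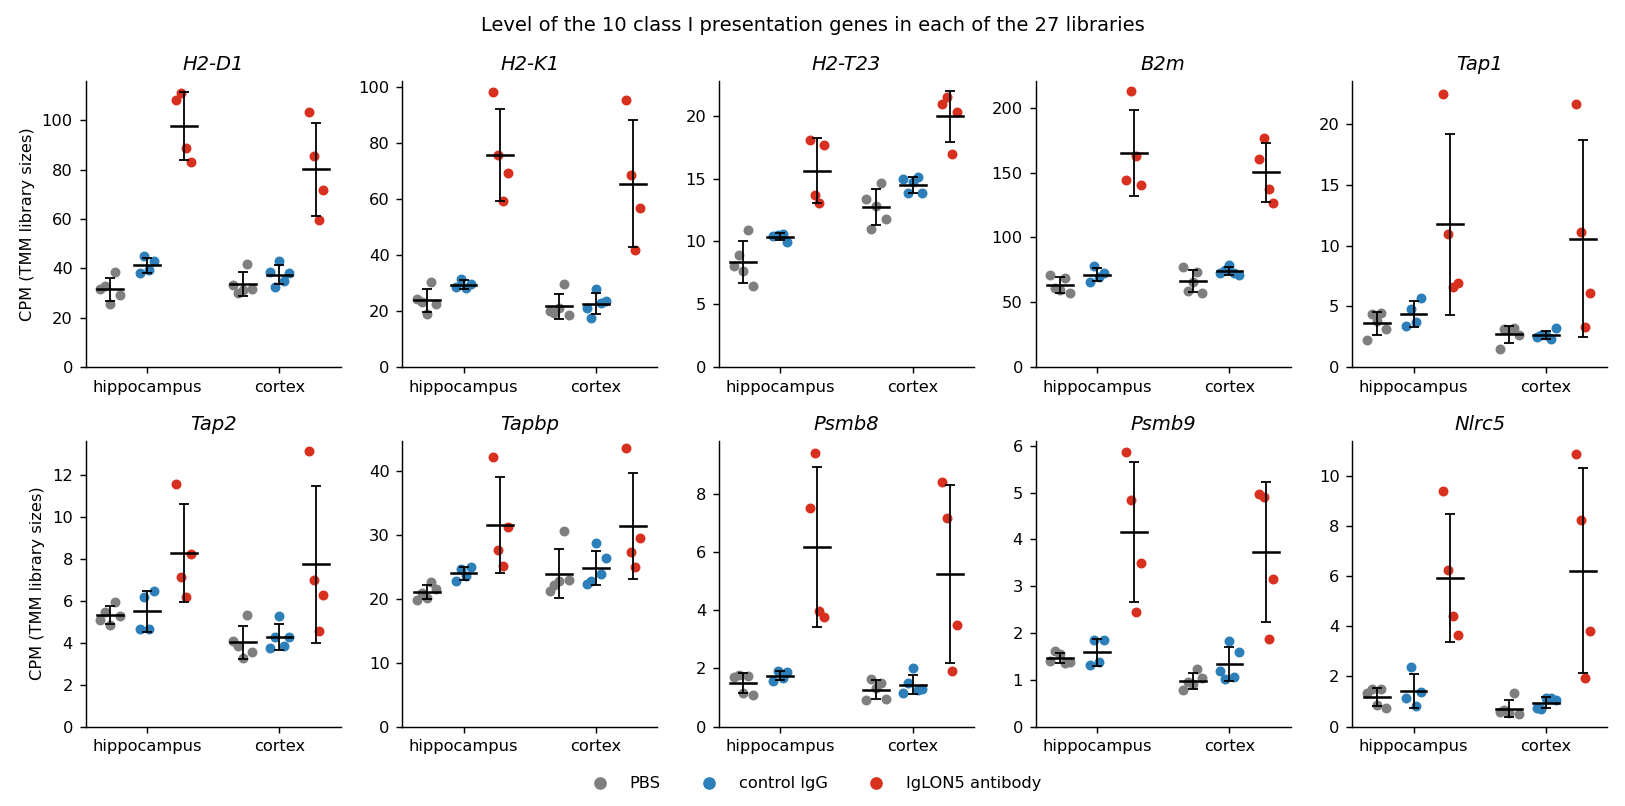
Level of each of the 10 genes (vertical axis, CPM with TMM library sizes, from 0) in every library, by tissue and infusion. Points are libraries, long bars are group means and whiskers are SD, and the α-IgLON5#1 points (red, named IgLON5 antibody, beside pCtrl, named control IgG) differ among themselves by the largest ratio for Tap1, whose highest library is 3.41 times the lowest in the hippocampus and 6.55 times in the cortex.

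The classical heavy chains, which present peptides to CD8 T cells, rose in both tissues. H2-D1 (ENSMUSG00000073411.12, chromosome 17, 35262730 to 35267499) stood at 31.7, 32.8, 25.7, 38.4 and 29.0 CPM in the hippocampi of PBS mice 14, 32, 33, 38 and 74, at 38.2, 44.9, 39.5 and 42.8 CPM in pCtrl mice 10, 15, 37 and 75, and at 108, 111, 88.9 and 83.2 CPM in α-IgLON5#1 mice 8, 9, 16 and 17. The lowest α-IgLON5#1 hippocampus was well above the highest control, and the group rose from 41.3 ± 3.05 in pCtrl to 97.8 ± 13.8 CPM (mean ± SD; log2 fold change 1.24, SE 0.139, adjusted p = 1.7e-06). In the cortex H2-D1 was at 33.3, 30.0, 31.4, 41.9 and 31.8 CPM in the same PBS mice, at 38.6, 32.6, 43.1, 35.1 and 38.0 CPM in pCtrl mice 10, 11, 15, 37 and 75, and at 103, 85.5, 59.7 and 71.6 CPM in α-IgLON5#1 mice 8, 9, 16 and 17. Again the groups did not overlap, with a rise of 2.13-fold (log2 fold change 1.09, SE 0.131, adjusted p = 1.1e-05).

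H2-K1 (ENSMUSG00000061232.16, chromosome 17, 33996017 to 34000347) went from 28.6, 31.4, 28.1 and 29.8 CPM in pCtrl hippocampi to 98.1, 75.6, 59.5 and 69.4 CPM in α-IgLON5#1 hippocampi, with the PBS hippocampi at 24.5, 23.1, 18.8, 30.2 and 22.5 CPM. The mice are given here and below in the order used for H2-D1. All α-IgLON5#1 hippocampi were above all control hippocampi, mouse 8 being highest, and the fold change was 2.56 (log2 fold change 1.36, SE 0.193, adjusted p = 4.4e-05). Cortical H2-K1 was 21.2, 17.5, 28.02, 22.8 and 23.6 CPM in pCtrl, 95.3, 68.5, 41.8 and 56.8 CPM in α-IgLON5#1 and 19.98, 19.4, 21.1, 29.6 and 18.6 CPM in PBS. The lowest α-IgLON5#1 cortex, mouse 16, exceeded the highest control cortex, PBS mouse 38, and the mean rise over pCtrl was 2.88-fold (log2 fold change 1.53, SE 0.182, adjusted p = 1.1e-05). H2-D1, H2-K1 and other class I heavy chains are alike over long stretches, so reads counted for any of them are uncertain.

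H2-T23 (ENSMUSG00000067212.8, chromosome 17, 36029773 to 36032855) encodes Qa-1, a nonclassical heavy chain that shows leader peptides of other class I chains to NK cell receptors. Its change was the smallest of the heavy chains. The hippocampal values were 8.02, 8.92, 7.62, 10.9 and 6.45 CPM in PBS, 10.4, 10.53, 10.6 and 9.97 CPM in pCtrl and 18.1, 13.7, 13.1 and 17.6 CPM in α-IgLON5#1 mice. The pCtrl hippocampi lay within a narrow band, the α-IgLON5#1 hippocampi all lay above it, and the rise was 1.51-fold (log2 fold change 0.59, SE 0.123, adjusted p = 0.0034), under the fold threshold. In the cortex, where levels were higher, it rose from 14.5 ± 0.612 in pCtrl to 19.96 ± 2.04 CPM (log2 fold change 0.46, SE 0.115, adjusted p = 0.02). Its cortical adjusted p was 0.052 when pCtrl mouse 11 was left out, and 0.095, 0.069 and 0.051 when α-IgLON5#1 mouse 8, 9 or 17 was, while the log2 fold change moved little (0.44, 0.44, 0.42 and 0.45, respectively).

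B2m (ENSMUSG00000060802.8), the light chain that all these heavy chains need to reach the surface, had the highest level per kb of the 10 and the smallest SE of the log2 fold change. It stood at 70.8, 61.1, 59.3, 68.5 and 57.1 CPM in PBS, 65.7, 78.0, 69.2 and 72.5 CPM in pCtrl and 144, 213, 162 and 141 CPM in α-IgLON5#1 hippocampi. Here mouse 9 was highest instead of mouse 8, and no α-IgLON5#1 hippocampus came near the control range (2.31-fold; log2 fold change 1.21, SE 0.116, adjusted p = 4.6e-07). In the cortex, the values were 77.0, 58.7, 65.7, 73.2 and 57.5 CPM in PBS, 72.5, 75.2, 79.0, 72.9 and 70.8 CPM in pCtrl and 160.4, 177, 138 and 126 CPM in α-IgLON5#1 mice. The groups were likewise apart there (2.03-fold; log2 fold change 1.02, SE 0.109, adjusted p = 3.6e-06).

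Tap1 (ENSMUSG00000037321.17, chromosome 17, 34187553 to 34197225), a subunit of the peptide transporter, rose in both tissues but unevenly among the mice. Hippocampal values were 2.22, 4.38, 3.81, 4.45 and 3.11 CPM in PBS, 3.37, 4.81, 3.71 and 5.72 CPM in pCtrl and 22.5, 11.0, 6.59 and 6.91 CPM in α-IgLON5#1 mice. Mouse 8 was more than 3 times as high as mice 16 and 17, which stood just above the highest pCtrl hippocampus (log2 fold change 1.402, SE 0.404, adjusted p = 0.034). This call was lost without mouse 8 (log2 fold change 0.88, adjusted p = 0.23), and it also missed the threshold, at log2 fold changes of 1.29 to 1.42, without mouse 9 (0.075), without pCtrl mouse 10 (0.11) or 37 (0.12), and in a fit of only the groups compared (0.10). In the cortex, Tap1 was at 1.503, 3.10, 3.02, 3.25 and 2.67 CPM in PBS, 2.44, 2.66, 2.64, 2.28 and 3.23 CPM in pCtrl and 21.7, 11.2, 3.31 and 6.13 CPM in α-IgLON5#1 mice. Mouse 16 was close to the controls and mouse 8 far above, with a mean rise of 3.97-fold (log2 fold change 1.99, SE 0.392, adjusted p = 0.0023). Leaving out mouse 8 gave a cortical log2 fold change of 1.36 (adjusted p = 0.047). Exons of Tap1 and Psmb9 overlap on opposite strands, and the strand setting of the counting is not given in the sources used here. Other members also share exon bases with annotated genes. Tapbp does so with Zbtb22 on the same strand. On the opposite strand, Tapbp overlaps Gm19412, Psmb8 and Tap2 overlap Gm20496, Tap2 overlaps Gm15821, and Nlrc5 overlaps 9330175E14Rik.

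Tap2 (ENSMUSG00000024339.12, chromosome 17, 34203527 to 34216321), the other transporter subunit, was less changed. In the hippocampus, its range was 4.64 to 6.46 CPM in pCtrl and 6.19 to 11.6 CPM in α-IgLON5#1 mice, which overlapped, and the difference did not pass the test (log2 fold change 0.59, SE 0.228, adjusted p = 0.12). With single libraries left out, the hippocampal log2 fold change ran from 0.39 to 0.71 (adjusted p up to 0.41). In the cortex, Tap2 rose from 4.27 ± 0.607 to 7.75 ± 3.75 CPM (log2 fold change 0.85, SE 0.218, adjusted p = 0.024), although mouse 16 (4.57 CPM) lay within the pCtrl range. Leaving out mouse 8 gave a cortical value of 0.47 (adjusted p = 0.29), and Tap2 also missed the threshold without pCtrl mouse 10 (0.076) or 37 (0.068) and with only the groups compared (0.15).

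Tapbp (ENSMUSG00000024308.15, chromosome 17, 33915899 to 33929292) encodes tapasin. It had the smallest log2 fold change of the 10 in both tissues, 0.39 in the hippocampus (adjusted p = 0.11) and 0.34 in the cortex (adjusted p = 0.22), and passed the test in neither. The α-IgLON5#1 hippocampi were at 42.1, 27.7, 25.1 and 31.2 CPM and the pCtrl hippocampi averaged 24.0 ± 1.00 CPM, so that mouse 16, the lowest of the former, lay just above the highest pCtrl library. Without α-IgLON5#1 mouse 16 the hippocampal adjusted p was 0.039, while without mouse 8 the log2 fold change was 0.22 in the hippocampus (adjusted p = 0.43) and 0.14 in the cortex (adjusted p = 0.74). In the cortex, the range of 25.1 to 43.6 CPM in α-IgLON5#1 mice overlapped that of 22.3 to 28.8 CPM in pCtrl mice.

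The inducible proteasome subunits were low in control tissue and rose several-fold. Psmb8 (ENSMUSG00000024338.15, chromosome 17, 34197721 to 34201454) stood at 1.71, 1.79, 1.14, 1.75 and 1.08 CPM in PBS, 1.57, 1.90, 1.67 and 1.87 CPM in pCtrl and 7.53, 9.41, 3.98 and 3.78 CPM in α-IgLON5#1 hippocampi. All α-IgLON5#1 hippocampi exceeded the controls, mice 8 and 9 by the widest margin (3.47-fold; log2 fold change 1.80, SE 0.341, adjusted p = 0.0014). The cortical values were 0.908, 1.63, 1.34, 1.51 and 0.935 CPM in PBS, 1.16, 1.49, 2.001, 1.26 and 1.297 CPM in pCtrl and 8.40, 7.18, 1.93 and 3.48 CPM in α-IgLON5#1 mice. There mouse 16 fell within the pCtrl range, just under pCtrl mouse 15, while the other 3 were above it (3.58-fold; log2 fold change 1.84, SE 0.327, adjusted p = 8.0e-04). Psmb9 (ENSMUSG00000096727.3, chromosome 17, 34181987 to 34187764) was at 1.59 ± 0.289 CPM in pCtrl and 4.16 ± 1.495 CPM in α-IgLON5#1 hippocampi, a rise that passed (log2 fold change 1.37, SE 0.261, adjusted p = 0.0015). In the cortex, Psmb9 rose from 1.34 ± 0.362 to 3.73 ± 1.49 CPM (log2 fold change 1.44, SE 0.250, adjusted p = 6.0e-04), and the groups did not overlap in either tissue.

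Nlrc5 (ENSMUSG00000074151.13), the transactivator of class I promoters, had the largest fold change of the 10 in both tissues. Its hippocampal values were 1.33, 1.51, 0.880, 1.48 and 0.753 CPM in PBS, 1.14, 2.39, 0.809 and 1.38 CPM in pCtrl and 9.40, 6.25, 4.41 and 3.64 CPM in α-IgLON5#1 mice. The rise was 4.07-fold without overlap (log2 fold change 2.02, SE 0.415, adjusted p = 0.0029). In the cortex Nlrc5 was at 0.595, 0.650, 0.538, 1.32 and 0.495 CPM in PBS, 0.751, 0.692, 1.13, 1.12 and 1.06 CPM in pCtrl and 10.9, 8.23, 1.93 and 3.82 CPM in α-IgLON5#1 mice. The α-IgLON5#1 cortices were all above the controls and differed more than 5-fold among themselves (6.37-fold; log2 fold change 2.67, SE 0.406, adjusted p = 1.4e-04).

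**Figure D2:**
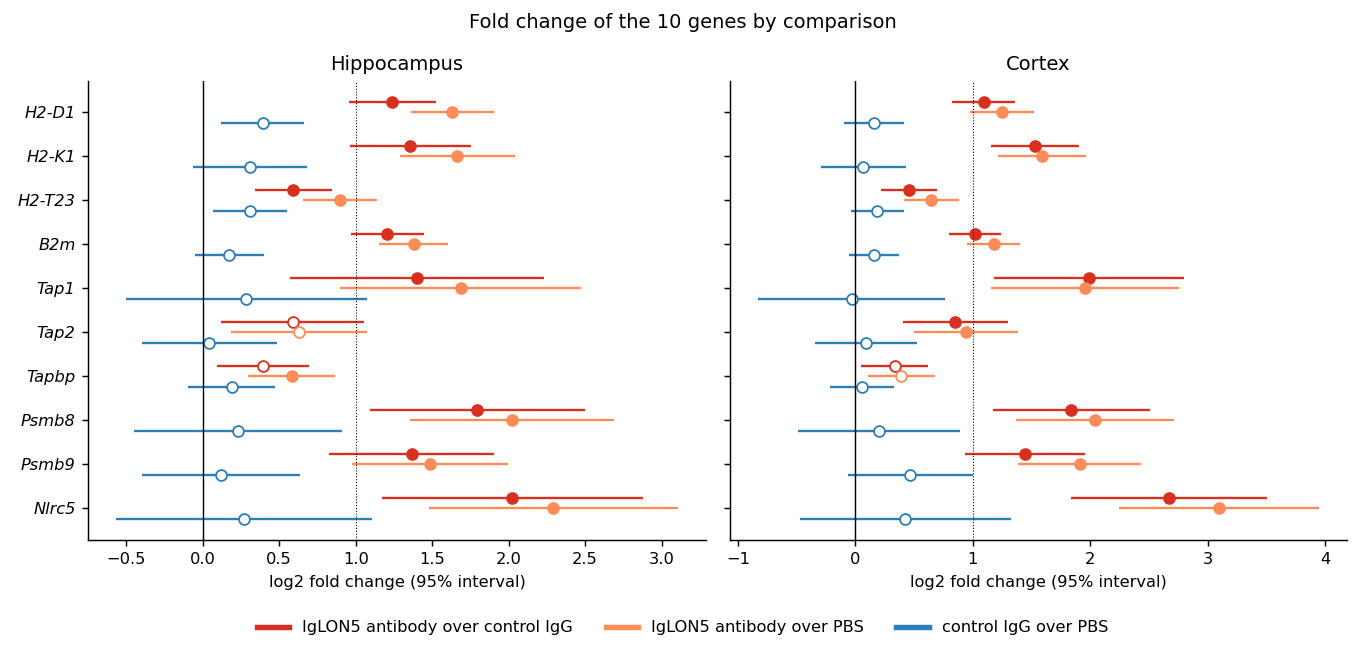
Log2 fold change (horizontal axis) of each gene with its 95% interval, in hippocampus (left) and cortex (right), for α-IgLON5#1 over pCtrl (red), α-IgLON5#1 over PBS (orange) and pCtrl over PBS (blue). Filled points passed an adjusted p under 0.05, open points did not, the dotted line marks a fold change of 2, and all blue points are open and lie between -0.03 and 0.47.

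Against PBS, which shares the α-IgLON5#1 libraries with the comparison above, 9 of 10 genes rose in the hippocampus (3.81% of all genes) and 7 were up-regulated DEGs (2.56%). The member that did not pass was Tap2 (log2 fold change 0.63, SE 0.216, adjusted p = 0.11), and the groups were apart in all 10 members (4.49% of all genes). Hippocampal Tapbp passed here (log2 fold change 0.58, SE 0.140, adjusted p = 0.011), but not without mouse 8 (adjusted p = 0.12), and Tap1 likewise failed without mouse 8 (0.11). In the cortex, 9 rose (2.97% of all genes), 7 were up-regulated DEGs (2.24%), and 8 had groups without overlap (3.14%). Tapbp was the member that did not pass (log2 fold change 0.39, SE 0.138, adjusted p = 0.2), and it did without PBS mouse 38 (0.044), while leaving out mouse 8 gave 0.197 on the log2 scale (adjusted p = 0.94). Without mouse 8 cortical Tap1 was at 1.33 on the log2 scale, in place of 1.96 (adjusted p = 0.048). Cortical Tap2 did not pass without mouse 8 (log2 fold change 0.565 in place of 0.94, adjusted p = 0.19), and in a fit of only the groups compared Tap1 (0.060) and Tap2 (0.17) did not. Nlrc5 had the largest log2 fold change over PBS, 2.29 in the hippocampus and 3.10 in the cortex, followed by Psmb8 with 2.02 and 2.04.

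The comparison of pCtrl with PBS asks what infusion of human IgG without IgLON5 reactivity does to these genes. With edgeR, 0 of 10 members passed in the hippocampus (0.192% of all genes, 39 genes) and 0 in the cortex (0% of all genes, of which 1650 were under an unadjusted p of 0.05). At an unadjusted p under 0.05 there were 2 in the hippocampus, H2-D1 and H2-T23, beside 2828 of all 20271 genes, and 0 in the cortex, and DESeq2 also called 0 in both. All 10 hippocampal estimates were above 0 (50.7% of all genes), with a median log2 difference of 0.25 beside 0.00 over all genes, and 9 cortical estimates were (48.97% of all genes), with a median of 0.16. In the hippocampus, H2-D1 had the largest, 0.39 (95% interval 0.12 to 0.66), and it did not pass (adjusted p = 0.14). In the cortex, Psmb9 had the largest, 0.47 (95% interval -0.07 to 1.00, adjusted p = 0.68). For B2m the difference was 0.17 (95% interval -0.05 to 0.40) in the hippocampus and 0.16 (95% interval -0.06 to 0.37) in the cortex. For Nlrc5 it was 0.27 (95% interval -0.57 to 1.10) and 0.43 (95% interval -0.48 to 1.33), intervals that still include a fold change of 2. With single libraries left out, the value of Nlrc5 ran from -0.11 to 0.46 in the hippocampus and from 0.31 to 0.76 in the cortex.

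The response was compared between tissues as an interaction, the log2 fold change over pCtrl in the hippocampus minus that in the cortex, and with edgeR 0 of 10 members passed (0% of all genes, of which 2158 were under an unadjusted p of 0.05). At that unadjusted p 0 of the 10 passed, and DESeq2 also called 0. Without regard to the mouse, Nlrc5 had the largest difference, -0.65 (95% interval -1.83 to 0.53), followed by Tap1 with -0.59 (95% interval -1.73 to 0.56). B2m, measured most precisely, differed by 0.19 (95% interval -0.14 to 0.52) and H2-T23 by 0.13 (95% interval -0.21 to 0.48). The intervals of Tap1 and Nlrc5 leave room for a larger cortical response, but with single libraries left out the Tap1 difference ran from -1.11 to 0.032 and that of Nlrc5 from -0.97 to -0.23. The difference of B2m ran from 0.04 to 0.275 in the same fits. With the mouse as a block, 0 of the 10 passed (0.00987% of all genes). In that fit Tap1 had the largest difference, -0.445 (SE 0.196, adjusted p = 0.40), and Nlrc5 was at -0.37 (SE 0.361, adjusted p = 0.73).

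In PBS mice, H2-T23 was the member that differed between tissues without regard to the mouse, at 12.8 ± 1.43 CPM in cortex and 8.38 ± 1.66 CPM in hippocampus (n = 5 each; log2 fold change 0.60, SE 0.111, adjusted p = 1.5e-04), as against 26.7% of all genes. The lowest PBS cortex (11.0 CPM) was above the highest PBS hippocampus (10.9 CPM). Psmb9 (0.982 ± 0.167 CPM in cortex, 1.46 ± 0.110 in hippocampus, adjusted p = 0.097) and Nlrc5 (0.720 ± 0.343 and 1.19 ± 0.352, adjusted p = 0.22) had lower cortical means but did not pass. The same 5 mice gave both tissues, and with the mouse as a block 6 of 10 members differed, as against 29.2% of all genes. H2-T23 was higher in the cortex (log2 difference 0.61, adjusted p = 3.9e-05), as was Tapbp (0.17, adjusted p = 0.036). With that block Psmb9 (-0.58, adjusted p = 0.0037), Tap2 (-0.42, adjusted p = 0.0063), Tap1 (-0.41, adjusted p = 0.029) and Nlrc5 (-0.75, adjusted p = 0.0496) were lower in the cortex. Without the block, but with only the groups compared, 3 passed (H2-T23, Psmb9 and Tap2), as against 25.5% of 18891 genes.

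Ordered by group mean, both α-IgLON5#1 groups took the top places for all 10 members, and their ranges overlapped each other in each. The hippocampus came first for 8 members, and the cortex for H2-T23 and Nlrc5. The next group was apart from the second for H2-D1, H2-K1, B2m, Psmb8, Psmb9 and Nlrc5, and overlapped it for Tap1, Tap2 and Tapbp. For H2-T23 the second group, the α-IgLON5#1 hippocampi, overlapped the pCtrl and PBS cortices. Among the 4 control groups, neighbours overlapped in all members but H2-T23, whose cortices stood above the hippocampi.

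For levels per kb, all annotated exons of a gene were merged, giving for example 3381 bases for Psmb8 and 860 for B2m. Such a length can exceed that of the mRNA present, so the order of members per kb depends on the annotation. Per kb of exon, B2m was the most abundant member in PBS hippocampi, at 73.7 ± 6.92 CPM per kb (mean ± SD, n = 5). H2-D1 followed at 12.2 ± 1.83, H2-K1 at 8.11 ± 1.41, Tapbp at 5.80 ± 0.309, H2-T23 at 2.90 ± 0.575 and Tap2 at 1.41 ± 0.110 CPM per kb. Tap1 (0.656 ± 0.172), Psmb8 (0.442 ± 0.103), Psmb9 (0.400 ± 0.0301) and Nlrc5 (0.140 ± 0.0414) were the least abundant, and Psmb8 and Psmb9 did not differ beyond their spread. In α-IgLON5#1 hippocampi B2m reached 192 ± 38.8 and Nlrc5 0.698 ± 0.302 CPM per kb.

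The inducible subunits were set against the constitutive subunits whose places they take, as a ratio of CPM per kb within each library. Psmb8 was 1.69 ± 0.164% of Psmb5 in pCtrl hippocampi (1.58 to 1.93%) and 5.15 ± 1.59% in α-IgLON5#1 hippocampi (3.45 to 6.70%). In the cortex, the ratio was 1.34 ± 0.280% in pCtrl and 5.14 ± 2.76% in α-IgLON5#1 mice, and the lowest value of the latter (2.02%) was above the highest pCtrl value (1.77%). The ratio was thus higher in every α-IgLON5#1 library than in any pCtrl library of the tissue. Its absolute size depends on the merged exon lengths and does not give the share of inducible subunits. Psmb9 was 1.18 ± 0.236% of Psmb6 in pCtrl and 3.12 ± 0.967% in α-IgLON5#1 hippocampi, and 0.948 ± 0.270% and 2.69 ± 1.06% in the cortex. Psmb10, the remaining inducible subunit and no member of the set, was already 90.2 ± 5.42% of Psmb7 in pCtrl hippocampi and stood at 104 ± 13.8% in α-IgLON5#1 hippocampi, with overlapping ranges. Other gene pairs were compared the same way. H2-K1 was 62.7 ± 2.03% of H2-D1 in pCtrl and 67.9 ± 10.3% in α-IgLON5#1 hippocampi, which overlapped, and 52.9 ± 4.80% and 70.5 ± 7.98% in the cortex, which did not. Tap1 was 54.9 ± 4.75% of Tap2 in pCtrl and 92.9 ± 34.1% in α-IgLON5#1 hippocampi. These ratios were not tested.

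**Figure D3:**
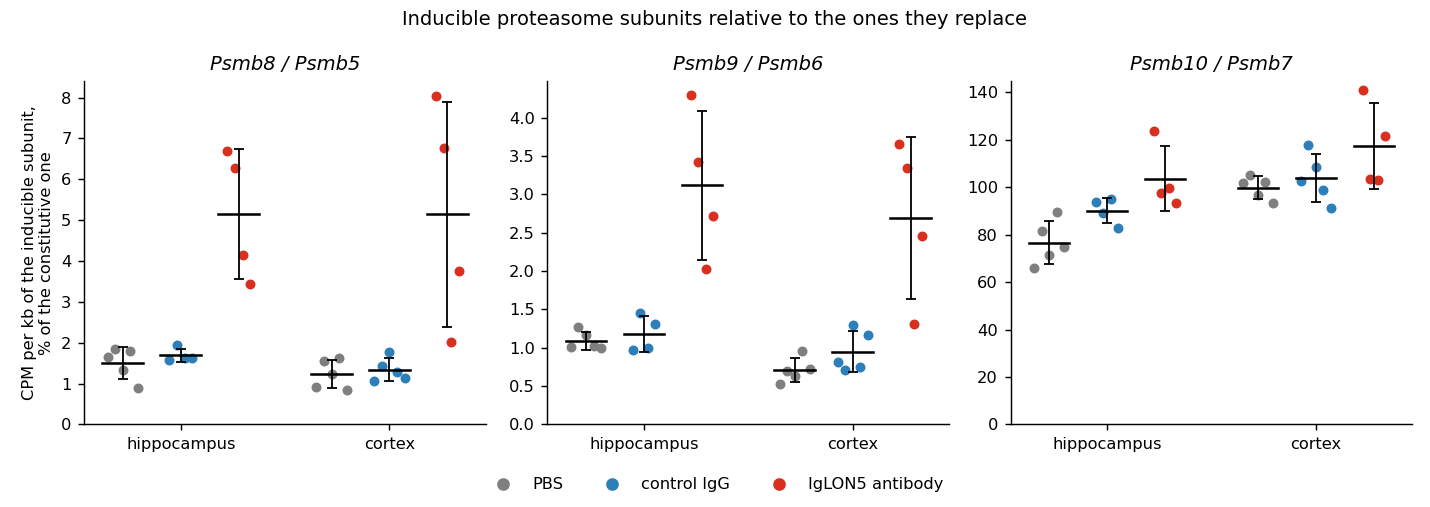
Level of the inducible proteasome subunits Psmb8, Psmb9 and Psmb10 as a percentage of the constitutive subunits Psmb5, Psmb6 and Psmb7 (vertical axis, ratio of CPM per kb of exon, from 0) in every library, with group means (long bars) and SD (whiskers). The α-IgLON5#1 libraries (red) lie above the pCtrl libraries (blue) for Psmb8 and Psmb9 in both tissues and overlap them for Psmb10 in both.

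The 4 α-IgLON5#1 mice differed in the size of the response, and much in the same order in both tissues. Relative to the pCtrl mean of the tissue, the median ratio over the 10 members was 2.97 in the hippocampus of mouse 8, 2.63 in mouse 9, 1.99 in mouse 17 and 1.78 in mouse 16. In the cortex, it was 3.40, 2.70, 2.11 and 1.37, respectively. Mouse 8 had the highest value of 7 members in the hippocampus and of 8 in the cortex, and mouse 9 of the other 3 and 2. The lowest value belonged to mouse 16 for 6 hippocampal and 9 cortical members and to mouse 17 for the remaining 4 and 1. All 10 ratios were above 1 in all 8 libraries, the lowest being 1.01 (Tapbp, cortex of mouse 16) and the highest 11.4 (Nlrc5, cortex of mouse 8). Mice 8 and 9 also had the shallower libraries, with 19428512 and 20093818 counts in the hippocampus beside 31759977 (mouse 16) and 32776892 (mouse 17), and with 35677026 and 26827119 counts in the cortex beside 43864819 and 54199358. The part of depth in this order was not tested.

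**Figure D4:**
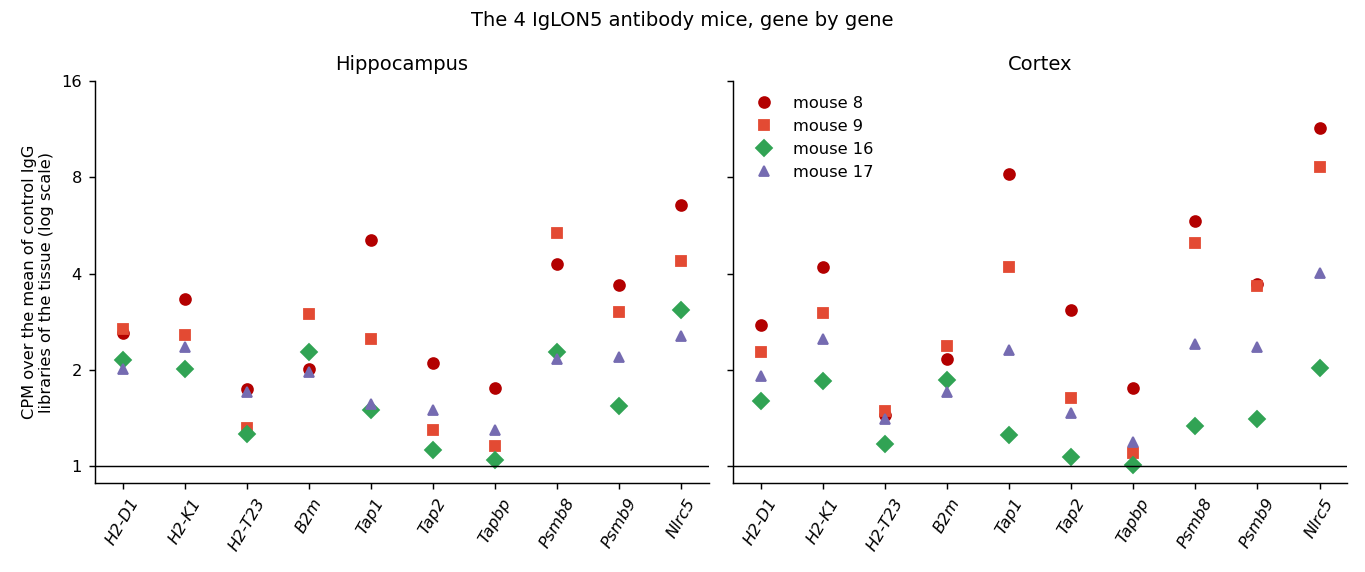
CPM of each gene in each α-IgLON5#1 library divided by the mean of the pCtrl libraries of the tissue (vertical axis, log scale), for hippocampus (left) and cortex (right), with a symbol for each mouse. Mouse 8 (circles) or mouse 9 (squares) is highest for each gene, and mouse 16 (diamonds) is lowest for 9 of 10 genes in the cortex.

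Other genes of the pathway were followed as lists. Among 15 other class I heavy chains, 11 could be tested, and 4 rose and 0 fell in each tissue (median log2 fold change 0.33 in the hippocampus and 0.37 in the cortex). H2-Q7 rose from 0.760 ± 0.271 to 3.80 ± 1.35 CPM in the hippocampus (log2 fold change 2.30, adjusted p = 9.6e-05), and H2-Q6 (2.09, adjusted p = 0.00074), H2-Q4 (1.77, adjusted p = 0.0036) and H2-M3 (0.89, adjusted p = 0.016) also rose. In the cortex, H2-Q6 (2.72, adjusted p = 5.3e-05), H2-Q7 (2.55, adjusted p = 4.1e-05), H2-Q4 (2.17, adjusted p = 0.0003) and H2-T22 (0.43, adjusted p = 0.045) rose. H2-Q6 and H2-Q7 are near copies of each other, so their counts are uncertain. Of the class I-like molecules, relatives of the heavy chains with other ligands, 6 of 10 could be tested. Of these Hfe rose in the hippocampus (0.44, adjusted p = 0.047), while in the cortex 0 passed with edgeR (3 at an unadjusted p under 0.05, 0 with DESeq2) and Mr1 was at 6.15 ± 0.881 CPM in α-IgLON5#1 and 6.22 ± 0.438 CPM in pCtrl mice.

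The chaperones and trimming enzymes of the endoplasmic reticulum act on the heavy chains or their peptides. With edgeR, 0 of 10 passed in either tissue (1 in each at an unadjusted p under 0.05, 0 with DESeq2), with median log2 fold changes of 0.07 and 0.01. Calnexin (Canx) was at 329 ± 23.2 CPM in α-IgLON5#1 and 357 ± 10.1 CPM in pCtrl hippocampi, and calreticulin (Calr) at 358 ± 22.4 and 343 ± 30.8 CPM. Of 14 constitutive proteasome genes, 0 passed with edgeR in either tissue (0 also at an unadjusted p under 0.05 and with DESeq2, medians -0.01 and -0.08), and Psmb1 was at 91.3 ± 4.31 CPM in α-IgLON5#1 and 94.8 ± 4.10 CPM in pCtrl hippocampi. Of 4 partners of the inducible proteasome, Psme1, a subunit of the cap that opens the core particle, rose in both tissues (hippocampus 0.30, adjusted p = 0.034, and cortex 0.37, adjusted p = 0.0073). Psme2, its partner in the cap, had log2 fold changes of 0.39 (adjusted p = 0.071) and 0.34 (adjusted p = 0.16), and Psmb10 of 0.13 (adjusted p = 0.51) and 0.10 (adjusted p = 0.72).

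Transcription factors of class I genes were also followed, and the median log2 fold change of this list was 0.14 in the hippocampus and 0.07 in the cortex. Irf8, a factor of myeloid and B cells, rose in both (hippocampus 6.01 ± 0.945 to 15.7 ± 2.67 CPM, log2 fold change 1.38, adjusted p = 1.5e-06, and cortex 0.92, adjusted p = 0.00018). Nfkb1, a subunit of NF-κB, rose in the cortex (0.52, adjusted p = 0.043). Irf1, an early target of interferon signalling, had log2 fold changes of 0.86 (adjusted p = 0.074) and 0.98 (adjusted p = 0.050), and missed the threshold in both tissues. Of 11 genes for interferon ligands, their receptors and the receptors' kinases, 7 could be tested and 2 rose in each tissue. These were the receptor chain Ifngr1 (0.56, adjusted p = 0.00053) and the kinase Tyk2 (0.32, adjusted p = 0.047) in the hippocampus and the receptor chains Ifnar2 (0.42, adjusted p = 0.013) and Ifngr1 (0.39, adjusted p = 0.012) in the cortex. The ligands Ifng, Ifna2 and Ifna4 were listed at 0 in all hippocampal libraries, and Ifna2 and Ifna4 in all cortical ones, while Ifnb1 averaged at most 0.0136 CPM in any group. Receptors for class I molecules were low throughout, with sums over 12 genes of 2.33 to 3.52 CPM in pCtrl and 6.70 to 20.5 CPM in α-IgLON5#1 hippocampi. Pirb, an inhibitory receptor of myeloid cells that binds class I, rose from 0.756 ± 0.196 to 5.67 ± 3.59 CPM in the hippocampus (2.88, adjusted p = 0.00011) and from 0.703 ± 0.203 to 5.27 ± 4.49 CPM in the cortex (2.93, adjusted p = 8.2e-05). Lilrb4a rose in both tissues (2.66, adjusted p = 0.014, and 3.71, adjusted p = 0.00086), and Klrd1, a chain of the NK receptor for Qa-1, rose in the cortex (1.92, adjusted p = 0.033), as did Lilra5 (1.23, adjusted p = 0.034).

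**Figure D5:**
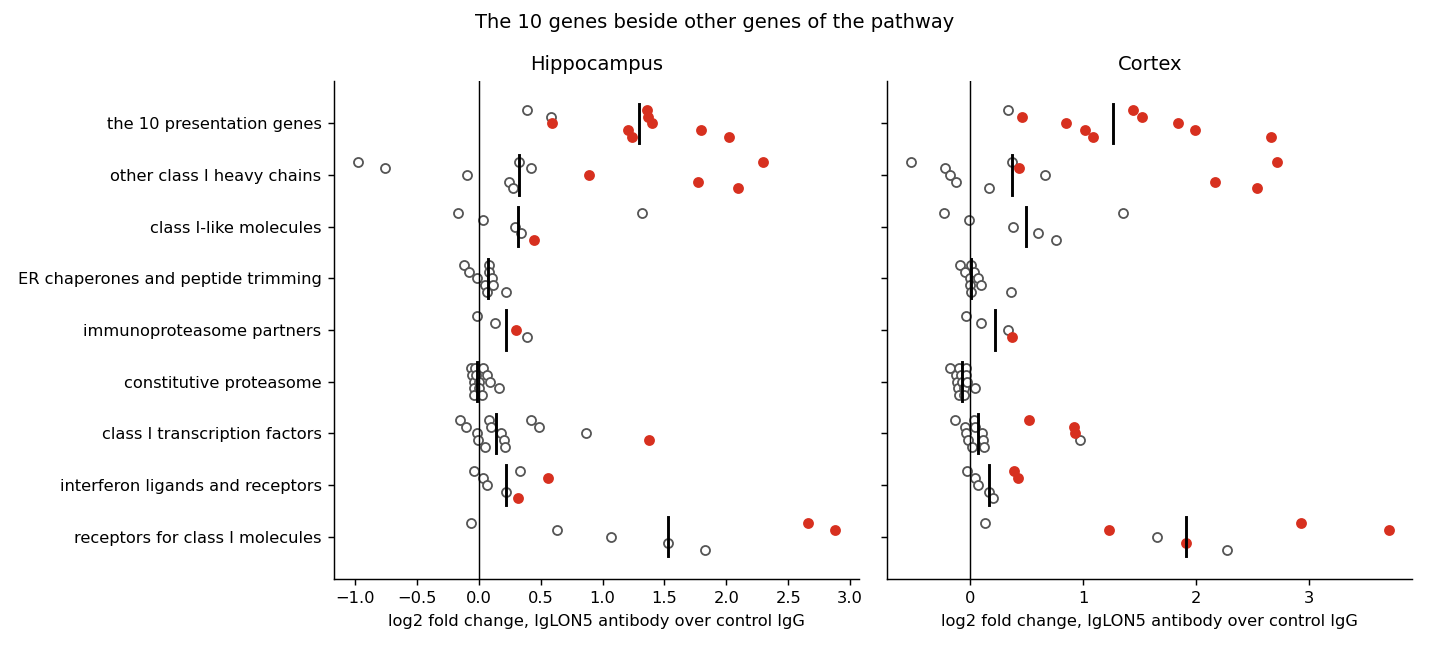
Log2 fold change of α-IgLON5#1 over pCtrl (horizontal axis) for each tested gene of the 10 members and of 8 lists of related genes, in hippocampus (left) and cortex (right). Red points passed an adjusted p under 0.05, open points did not, and vertical bars are list medians, which stand at 1.298 and 1.27 for the members and at 0.07 and 0.01 for the chaperones and peptide trimming.

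Markers of microglia and macrophages and of B and plasma cells rose beside the members, and fewer markers of T cells did. Of 10 microglia and macrophage markers, 8 rose in the hippocampus and 5 in the cortex, and their sum was 259 to 295 CPM in pCtrl and 372 to 641 CPM in α-IgLON5#1 hippocampi, and 259.7 to 315 and 368 to 428 CPM in the cortex. P2ry12 had lower estimates in both tissues (-0.37, adjusted p = 0.24, and -0.43, adjusted p = 0.21), as had hippocampal Mrc1 (-0.06, adjusted p = 0.97). Cortical Csf1r (0.24, adjusted p = 0.24), Cx3cr1 (0.44, adjusted p = 0.058), Tmem119 (0.18, adjusted p = 0.65) and Mrc1 (0.59, adjusted p = 0.61) did not pass either. Csf1r was the largest part of the sum, at 114 CPM in pCtrl and 188 CPM in α-IgLON5#1 hippocampi. Of 7 tested B and plasma cell markers, 6 rose in the hippocampus and 4 in the cortex, with sums of 1.10 to 2.58 CPM in pCtrl and 8.39 to 90.5 CPM in α-IgLON5#1 hippocampi and of 1.44 to 2.03 and 7.47 to 35.5 CPM in the cortex. Most of that sum was Jchain, the joining chain of secreted antibodies and a plasma cell gene, which averaged 44.8 CPM in α-IgLON5#1 and 0.504 CPM in pCtrl hippocampi (19.1 and 0.502 CPM in the cortex), while the next marker, Cd22, averaged 1.82 CPM in α-IgLON5#1 hippocampi. Of 7 tested T cell markers, 2 rose in the hippocampus and 1 in the cortex, and their sums were 2.998 to 5.23 CPM in pCtrl and 4.47 to 10.48 CPM in α-IgLON5#1 hippocampi. NK cell markers summed to 0.810 to 1.45 CPM in pCtrl and 1.81 to 2.71 CPM in α-IgLON5#1 hippocampi, and 0 of the 2 tested passed in either tissue with edgeR (0 also at an unadjusted p under 0.05 and with DESeq2). No defining marker of these 4 lists was at 0 throughout a group. Their part in the levels of the 10 genes was not tested. Among the α-IgLON5#1 hippocampi the microglia and macrophage sum was highest in mouse 9 (641 CPM) and lower in mouse 16 (516), mouse 8 (411) and mouse 17 (372), while in the cortex it was 428 CPM in mouse 8, 426 in mouse 9, 374 in mouse 16 and 368 in mouse 17. The B and plasma cell sum was 90.5 CPM in mouse 17, 62.8 in mouse 8, 44.99 in mouse 16 and 8.39 in mouse 9 in the hippocampus, and 35.5, 33.6, 18.8 and 7.47 CPM in the cortex of the same mice. Mouse 8, highest for most members, thus had the highest microglia and macrophage sum in the cortex but not in the hippocampus. It was second for the B and plasma cell sum in both tissues. It had the highest T cell marker sum in both (hippocampus 10.48 CPM, cortex 11.0 CPM). The same held for NK cell markers (hippocampus 2.71 CPM, beside 2.65 CPM in mouse 9, and cortex 3.67 CPM, beside 1.59 CPM). Gfap rose among 8 astrocyte markers in both tissues (1.31, adjusted p = 0.0026, and 1.46, adjusted p = 0.00048), Tubb3 fell among 8 neuronal markers in the hippocampus (by 0.34 on the log2 scale, adjusted p = 0.027), and the other markers of these lists did not pass. With edgeR, 0 of 8 endothelial, 8 oligodendrocyte, 6 tested choroid plexus and 5 erythrocyte markers passed in either tissue. At an unadjusted p under 0.05 there were 3 choroid plexus and 1 erythrocyte marker in the hippocampus and 1 endothelial marker in the cortex, and DESeq2 called 1 endothelial marker in the cortex and 0 of the others.

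The members varied together across libraries. Over the 27 libraries, the Pearson correlation of log2 CPM between members had a median of 0.86 over 45 pairs (0.37 to 0.98), highest for H2-D1 with H2-K1. After the mean of each group was subtracted, the median was 0.71 (-0.0045 to 0.91). H2-K1 followed the mean of the other 9 most closely after that step (0.93), then H2-D1 (0.91) and Nlrc5 (0.90), and B2m least (0.37). The libraries share groups and tissues, and paired tissues share mice, so these values describe the set and were not tested. The genes outside the set that most resembled the members' mean over all libraries were H2-Q4 (r = 0.97), Cybb, the catalytic subunit of the phagocyte NADPH oxidase (0.97), Myo1g, a myosin of blood cells (0.97), Lyz2, the lysozyme of myeloid cells (0.97), and Cxcl16, a chemokine (0.97). With group means subtracted, they were Ifitm3 (0.94), Irf7 (0.93), H2-Q4 (0.92), Parp12 (0.91) and Irgm2 (0.90), of which Ifitm3, Irf7 and Irgm2 are classical interferon-induced genes. Single members differed in their closest genes. B2m varied most like C1qb, Cd52 and Ncf1 (r = 0.98 to 0.99), genes of microglia and leukocytes, while Tap1 varied most like Ch25h, Cxcl10 and Gbp3 (0.94 to 0.96) and Tap2 most like Ddx58, Parp9 and Samhd1 (0.94 to 0.95), which include the interferon-inducible chemokine CXCL10 and the RNA sensor RIG-I. H2-D1 was closest to Clec4a1, Apobec3 and Itgb2 (0.97 to 0.98), H2-K1 to H2-Q7, H2-Q4 and Apobec3 (0.97), and Nlrc5 to Bst2, Lgals3bp and H2-Q7 (0.96). Psmb8 was closest to Rac2, Tmem176b and Vasp (0.96), Psmb9 to Lgals3bp, Tmem176b and Ctsc (0.94 to 0.95), Tapbp to Parp10, Trim25 and Tnfrsf1a (0.90 to 0.93) and H2-T23 to P2rx4, Wdfy4 and Ly6d (0.87 to 0.88).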

How the data were processed

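RNA was sequenced as paired-end reads from a stranded poly(A) library (TruSeq Stranded mRNA) and aligned with STAR by the authors, and they deposited raw counts per gene for 27 libraries. The counting program, its annotation and its strand setting are not given in the sources used here. Here, 55141 of the 55487 Ensembl identifiers were matched to GENCODE M21 (GRCm38). The 10 members and all gene lists were chosen with earlier results of these data known. Genes that reached 10 counts in 4 or more libraries were fitted with edgeR 4.0.16 (R 4.3.3; TMM, quasi-likelihood F test, all 27 libraries in 1 fit without covariates), with Benjamini-Hochberg adjustment over 20271 genes. A gene "rose" or "fell" at an adjusted p under 0.05, and a DEG also changed more than 2-fold. Correlations used log2 CPM with a prior count of 1. All members are named, and so are up to 4 called genes of each list (the 2 largest and 2 smallest fold changes), or else its 2 most abundant genes, and the genes most correlated with the members. Irf1, Psme2, Psmb10, the interferon genes listed at 0, and P2ry12, Mrc1, Csf1r, Cx3cr1 and Tmem119 were named after their values were seen. Library pairs within groups all differed by more than sampling noise. Alternatives were DESeq2 1.42.0, other scaling and filters, fits of fewer libraries, a fold of 1.5 and a mouse block. Library titles give the mouse, so hippocampus and cortex of 1 number were taken as paired. Over 13 mice the correlation of their deviations from the group means was -0.0498 to 0.443 (median 0.194), above 0.1 in 8, and 8 hippocampi were closest to their own cortex. A result on the list of transcription factors is not reported here.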

Additional observations from a re-analysis of the deposited data

Results flagged for a closer look

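PBS mouse 38 stood apart from the other 4 PBS cortices in 4 members. Its cortical level was 41.9 CPM for H2-D1 (29.98 to 33.3 in the others), 29.6 CPM for H2-K1 (18.6 to 21.1), 30.6 CPM for Tapbp (21.2 to 22.9) and 1.32 CPM for Nlrc5 (0.495 to 0.651). These were 4 of 60 combinations of gene and group examined with Dixon's test for a single distant value, and chance alone marks about 1 in 20. Its hippocampus was the highest PBS hippocampus for H2-D1 (38.4 CPM), H2-K1 (30.2 CPM) and Tapbp (22.7 CPM), but not for Nlrc5. The cause was not tested.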

How the results depend on the processing

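DESeq2, another scaling (RLE), no filter on low counts and a stricter filter changed no member's call in the comparisons of α-IgLON5#1 with pCtrl or PBS. Leaving out single libraries, the number of members that rose was 7 to 9 in the hippocampus against pCtrl (DEGs 6 to 7), 7 to 9 in the cortex against pCtrl (DEGs 5 to 8), 7 to 9 in the hippocampus against PBS (DEGs 6 to 8) and 8 to 10 in the cortex against PBS (DEGs 7 to 8). With only mice 8 to 17, which leaves 2 hippocampal and 3 cortical pCtrl libraries, 2 members rose in the hippocampus (H2-D1 and B2m, 2 DEGs) and 1 in the cortex (B2m, 0 DEGs), with fewer samples in the fit and, for example, a log2 fold change of 1.56 in place of 1.53 for cortical H2-K1. With only the groups compared, 7 members rose in the hippocampus against pCtrl (6 DEGs), 8 in the cortex against pCtrl (7), 9 in the hippocampus against PBS (7) and 7 in the cortex against PBS (6), and 3 differed between PBS tissues in place of 1. With the mouse as a block, 6 differed between PBS tissues, and 0 in the response, as without it. No difference that passed changed sign under these alternatives, but some that did not pass did. With single libraries left out, the interaction changed sign for 6 members, reaching 0.28 for Psmb8 (-0.04 with all libraries), 0.115 for Psmb9 (-0.08), 0.11 for Tap2 (-0.26), -0.11 for Tapbp (0.06), 0.059 for H2-K1 (-0.17) and 0.032 for Tap1 (-0.59). So did pCtrl against PBS, for Nlrc5 and Tap2 in the hippocampus (-0.11 and -0.04) and for H2-K1, Tap1, Tap2 and Tapbp in the cortex (at most 0.041 past 0). Counts of 13 to 127 limit the control values of Nlrc5, Psmb8 and Psmb9.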
